A study of Mus musculus with 6 samples.

Results

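The nuclear genes for the subunits of the 5 oxidative phosphorylation complexes were followed in sorted mouse bone marrow progenitors with and without c-Myc and N-Myc. Members were the genes whose only annotated symbol begins with Nduf followed by a, b, c, s or v and a digit (complex I), is Sdha, Sdhb, Sdhc or Sdhd (complex II), or begins with Uqcr (complex III), Cox4 to Cox8 (complex IV) or Atp5 (complex V). This gave 81 of the 18193 genes measured, with 35, 4, 8, 17 and 17 genes in complexes I to V and 164 probe sets in all. Each gene was represented by its brightest probe set over the 6 arrays. Ndufs6, Ndufa11 and Cox7b have no probe set with their symbol alone and were not analysed here. Cyc1, a subunit gene of complex III, and Ndufab1, of complex I, do not match these symbols. They were followed among the other genes of the pathway.

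The 3 control arrays hold cells of mice with floxed c-myc and N-myc alleles, and the 3 dKO arrays hold cells of mice with the same alleles plus MxCre, a Cre transgene under the interferon-responsive Mx promoter. All mice were 8 weeks old, of a mixed background, and received 2 daily doses of pI-pC, an interferon inducer, the last one 3 days before the cells were sorted as Lin-Sca1+CD150+CD48+. Each control array is a pool of 2 mice and each dKO array a pool of 3. MxCre was absent from the controls, and its own effect cannot be told apart from that of losing both genes. For control 1 the tissue is labelled as LT-HSCs, while its title and gate are those of the other arrays.

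Complexes I and II pass electrons from NADH and succinate to coenzyme Q, complex III passes them on to cytochrome c, and complex IV to oxygen. Complexes I, III and IV pump protons, and complex V, the ATP synthase, uses the gradient to make ATP. Most subunits are encoded in the nucleus and imported, while a few are encoded by mitochondrial DNA. MYC is known as a regulator of mitochondrial biogenesis, and blood stem cells are known to rely less on respiration than the progenitors they give rise to.

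Most of these genes differed little between the groups. In the comparison of all genes with limma (threshold of 0.05 on the adjusted p), 2 of the 81 members fell in dKO, Uqcrh and Cox7a2l, and 1 rose, Cox4i2. That is 3.7% of the members, against 5.97% of all genes (2.85% lower and 3.12% higher). The median log2 fold change (dKO minus control) was -0.04 over the members and 0.05 over all genes. The quartiles were -0.17 and 0.08 for the members and -0.16 and 0.24 for all genes. The log2 fold change was negative in 43 members and positive in 38. At an unadjusted p of 0.05, 11 members and 18.2% of all genes passed. In these sorted pools, fewer cells of a type and less RNA per cell cannot be told apart.

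The arrays were precise enough to bound most of these differences. The 95% interval of the fold change, not adjusted for the number of genes, lay within a 2-fold change either way for 75 of 81 members and within a 1.5-fold change for 41. The 6 members whose interval reached beyond 2-fold were Ndufb4, Uqcrh, Cox4i2, Cox7a2l, Cox7c and Atp5g2. The dKO arrays lay wholly below the control arrays in 16 members and wholly above them in 7. Together these are 28.4% of the members, against 23.4% of all genes (10.7% below and 12.7% above). Most members are bright, and above the 90th percentile of level the order was the other way, with 29.6% of 54 members and 38.6% of 1820 genes not overlapping.

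**Figure D1:**
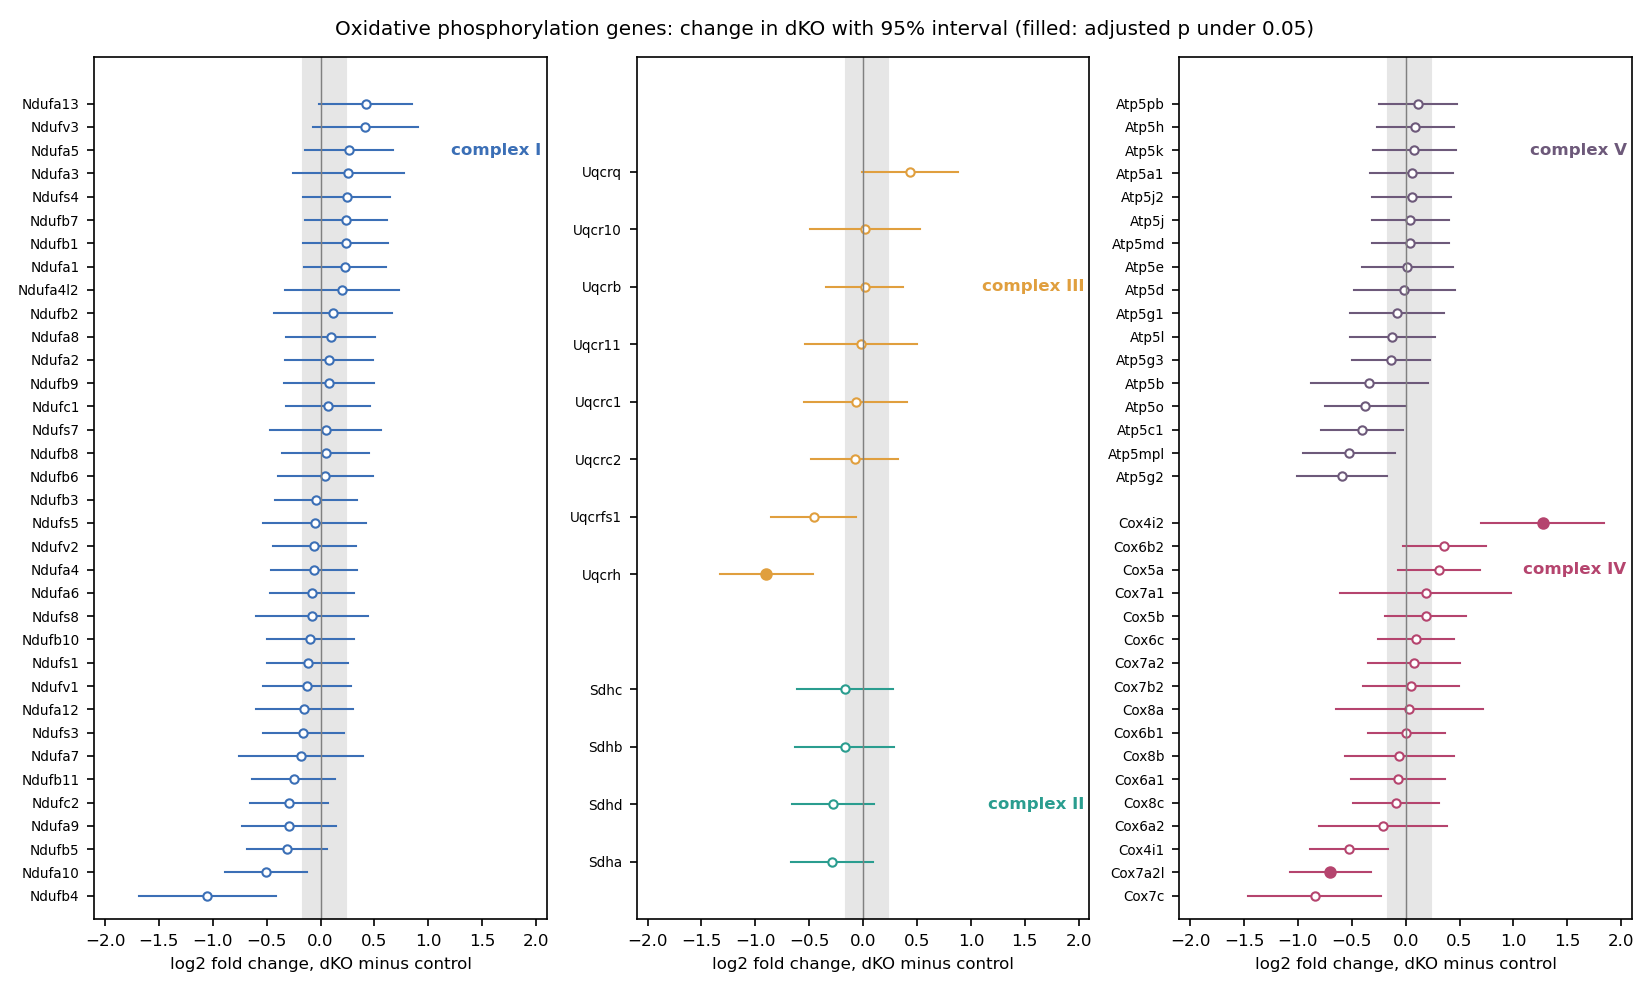
Log2 fold change (dKO minus control, x axis) of each of the 81 members, grouped by complex, with its unadjusted 95% interval (line). Filled points passed the adjusted threshold, and the grey band spans the quartiles of all genes (-0.16 to 0.24). Most points lie near 0, with Uqcrh (-0.90) and Cox7a2l (-0.70) filled on the left and Cox4i2 (1.27) on the right.

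The promoters of the members were searched for the E-box CACGTG, the sequence that MYC and its partner MAX are known to bind. RefSeq sequences (GRCm38.p6), from 250 bases before to 50 bases after an annotated start, were found for 66 of the 81 members. The E-box was present in 6 of the 66, or 9.09%, against 10.2% of the 14452 measured genes with such a sequence. The windows around it are shown because the E-box is the motif of the deleted factors, and it stands in capitals. The window of Atp5pb is shorter because it reaches the end of the sequence searched.

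Atp5g3 (chr2:73911547-73911576, minus strand): acccctgcctggCACGTGcaaggagcgagg
Atp5pb (chr3:105959495-105959513, minus strand): aCACGTGgtgtacctctgc
Atp5l (chr9:44920872-44920901, minus strand): ctcaggattcttCACGTGttatcgcgcctc
Atp5g1 (chr11:96075658-96075687, minus strand): agggactccgaaCACGTGggtgggggagct
Ndufa7 (chr17:33824488-33824517, plus strand): gcggagaggagtCACGTGagcaggggatgc
Ndufv1 (chr19:4012907-4012936, minus strand): agcagagggcgaCACGTGagcctggtttac

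None of these 6 genes passed the test (limma, adjusted p from 0.749 for Atp5g3 to 0.898 for Atp5g1), and their log2 fold changes ran from -0.18 for Ndufa7 to 0.12 for Atp5pb. The dKO arrays lay below the control arrays in Atp5g3 only, by 0.14. Motifs of other factors known for respiratory genes were also searched on both strands. The core GCATGCGC of nuclear respiratory factor 1 was found in 13.6% of the members and 4.68% of measured genes. The ETS motif CCGGAAG, bound by factors such as GABP, was found in 25.8% and 15%, and the YY1 motif AAGATGGC in 13.6% and 4.07%. No 2 of these motifs overlapped in a member's promoter. These shares describe the letters in the window and were not tested.

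Of the 3 members that passed the test, 2 had a RefSeq promoter. The 250 bases before the start are given for both, in the direction of the gene, with any of the 4 motifs in capitals.

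Cox7a2l (chr17:83514334-83514583, minus strand): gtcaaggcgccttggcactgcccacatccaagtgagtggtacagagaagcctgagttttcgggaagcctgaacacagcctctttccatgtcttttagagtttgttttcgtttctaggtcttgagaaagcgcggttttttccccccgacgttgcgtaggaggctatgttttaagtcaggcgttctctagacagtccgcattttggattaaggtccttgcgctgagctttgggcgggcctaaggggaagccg
Uqcrh (chr4:116075071-116075320, minus strand): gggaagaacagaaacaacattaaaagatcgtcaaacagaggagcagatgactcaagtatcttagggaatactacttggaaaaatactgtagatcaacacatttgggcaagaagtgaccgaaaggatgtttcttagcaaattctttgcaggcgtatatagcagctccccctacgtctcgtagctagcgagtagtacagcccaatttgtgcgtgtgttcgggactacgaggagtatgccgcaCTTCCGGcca

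Neither holds the E-box in the window searched. The only match in either is the ETS motif of Uqcrh, read on the opposite strand, whose first base lies 10 bases before the start.

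Complex I takes electrons from NADH through its flavin and iron-sulphur subunits. Of its 35 members 0 passed limma in either direction, 2 lay under an unadjusted p of 0.05, and the median was -0.04. The Nduf s and v genes hold most subunits that bind the flavin or the iron-sulphur clusters. Those 9 genes lay between -0.16 for Ndufs3 and 0.41 for Ndufv3. Ndufv1, the subunit that binds NADH, differed by -0.13 ± 0.18 (log2, SE), Ndufv2 by -0.06 ± 0.17 and Ndufs1 by -0.12 ± 0.17. The 26 a, b and c genes, grouped by symbol, had a median of 0.04. Among them Ndufa4 was counted in complex IV where only structural subunits were kept.

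Ndufb4, an accessory subunit of the membrane arm, had the lowest fold change of all members. Its values were 5.47, 5.63 and 5.67 in control and 4.17, 4.19 and 5.25 in dKO (log2 RMA value, replicates 1 to 3). All dKO arrays were lower than any control array, and dKO 3 lay much nearer to the controls than the other two. The difference was -1.05 ± 0.28 (SE) and did not pass (limma, adjusted p = 0.0654), whereas without dKO 3 it was -1.41 with adjusted p = 0.004. This probe set is dim, at percentile 30.2 of all genes. The 2 brighter probe sets that the annotation shares between Ndufb4, Ndufb4b and Ndufb4c differed by -0.17 and 0.02.

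Ndufa10 stood at 10.39, 10.22 and 10.05 in control and 9.71, 9.67 and 9.77 in dKO. The groups did not overlap, and the difference of -0.50 ± 0.17 did not pass (limma, adjusted p = 0.136). Its other probe set, much dimmer, differed by 0.19. Ndufb5 (-0.31 ± 0.16) and Ndufc2 (-0.29 ± 0.16), both of the membrane arm, also had dKO arrays below control arrays without passing. On the other side, Ndufa13, also known as GRIM-19, stood at 11.41, 11.35 and 11.56 in control and 11.65, 11.77 and 12.17 in dKO. Ndufv3, a small subunit of the NADH-oxidising arm, stood at 10.76 ± 0.17 in control and 11.17 ± 0.36 in dKO (SD, n = 3). Both were higher in every dKO array, by 0.42 ± 0.19 and 0.41 ± 0.22, and did not pass (adjusted p = 0.291 and 0.373).

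Complex II, succinate dehydrogenase, is also an enzyme of the citric acid cycle and has no subunit encoded by mitochondrial DNA. Its 4 genes were the only complete set of 1 sign, with log2 fold changes from -0.29 to -0.17 and a median of -0.22, and 0 of 4 passed limma, also at an unadjusted p of 0.05. Sdha, the flavoprotein that oxidises succinate, stood at 11.55, 11.41 and 11.45 in control and 11.37, 11.13 and 11.05 in dKO, a difference of -0.29 ± 0.17 (adjusted p = 0.434). Sdhd, one of the membrane anchors, stood at 10.64, 10.54 and 10.40 and at 10.38, 10.24 and 10.12, a difference of -0.28 ± 0.17 (adjusted p = 0.459). In both genes the groups just missed overlapping. The iron-sulphur subunit gene Sdhb (-0.17 ± 0.20) and the second anchor gene Sdhc (-0.17 ± 0.20) overlapped. These values are of the brightest probe sets. The other Sdhd probe set differed by -0.40 ± 0.17 (limma over all probe sets, unadjusted p = 0.0479, adjusted p = 0.287). That of Sdhc differed by -0.04. The other Sdha probe sets differed by -0.20 and, in dim ones, by -0.71 and 0.07. The 95% interval of Sdha ran from -0.67 to 0.09, so a decrease of more than 0.67 lies outside it.

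Complex III held the clearest decrease. Uqcrh, the hinge subunit at the site where cytochrome c docks, stood at 11.23, 11.41 and 11.56 in control and 10.23, 10.69 and 10.58 in dKO. Every dKO array was lower than every control array, with the nearest pair more than 0.5 apart on the log2 scale. Uqcrh fell by 0.90 ± 0.19 (SE, n = 3 per group), to 53.7% of control, with a 95% interval from -1.32 to -0.47 (limma, adjusted p = 0.0245). Its second probe set also separated the groups, with a difference of -0.60 ± 0.16, and did not pass over all probe sets (adjusted p = 0.0858). The call of Uqcrh was lost without control 2 (adjusted p = 0.0929), control 3 (0.113) or dKO 1 (0.0865), with differences from -0.99 to -0.76 over the arrays left out.

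The other 7 members of complex III did not pass. Uqcrfs1, the Rieske iron-sulphur protein, stood at 8.25, 8.67 and 8.34 in control and 7.99, 7.91 and 7.98 in dKO, below every control array by a small margin (-0.46 ± 0.18, adjusted p = 0.197). Uqcrq, a small subunit, went the other way, with 9.05, 9.29 and 9.05 in control and 9.49, 9.31 and 9.89 in dKO (0.44 ± 0.20, adjusted p = 0.292). The core proteins Uqcrc1 (-0.07 ± 0.21) and Uqcrc2 (-0.08 ± 0.18), and Uqcrb (0.01 ± 0.16), Uqcr10 and Uqcr11 differed by less than their standard errors. The members of this complex spanned from -0.90 to 0.44.

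Complex IV, cytochrome c oxidase, held the only member that rose and a second that fell. Cox4i2 encodes the form of subunit 4 that is known to be abundant in lung and to be induced by low oxygen. It stood at 6.06, 5.98 and 5.84 in control and 6.83, 7.03 and 7.82 in dKO. All dKO arrays were higher, dKO 3 the most. Cox4i2 rose by 1.27 ± 0.25 (SE), or 2.41-fold, with a 95% interval from 0.70 to 1.84 (limma, adjusted p = 0.0195). It has 1 probe set, at percentile 52.5 of all genes. Without control 2 or control 3 the call was lost (adjusted p = 0.0732 and 0.0772), and over single arrays left out the difference ran from 0.97 to 1.47. Whether a probe set near the middle of the range measures transcript or background cannot be read from these values alone.

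Cox4i1, the form of subunit 4 found in most tissues, stood at 11.13, 11.03 and 11.15 in control and 10.46, 10.59 and 10.68 in dKO. The spread within each group was small and the groups were clearly apart. The difference of -0.53 ± 0.16 nonetheless missed the threshold (limma, adjusted p = 0.106). The 95% intervals of Cox4i1 (-0.89 to -0.16) and Cox4i2 did not overlap, and the difference between the 2 changes was not tested.

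Cox7a2l, also called SCAF1, is not a structural subunit of complex IV itself but is known to join complexes III and IV in supercomplexes. It stood at 11.83, 11.79 and 11.78 in control and 10.92, 11.14 and 11.25 in dKO. The control arrays lay within about 0.05 of each other and the dKO arrays well below them. Cox7a2l fell by 0.70 ± 0.17 (SE), to 61.6% of control (limma, adjusted p = 0.0419). All 3 of its probe sets separated the groups, with differences of -0.70, -0.77 and -0.83, and over all probe sets the last 2 passed (adjusted p = 0.0443 and 0.027) while the brightest did not (0.0562). The call was lost without control 1 (0.134), control 2 (0.132), control 3 (0.141), dKO 1 (0.143) or dKO 2 (0.08), with differences from -0.77 to -0.61.

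Cox7c, a small structural subunit, stood at 6.40, 5.44 and 5.92 in control and 5.41, 5.11 and 4.71 in dKO. The lowest control and the highest dKO array almost met, and the difference of -0.85 ± 0.27 did not pass (limma, adjusted p = 0.124). Both of its probe sets are dim, and in the other one (-0.72) the groups overlapped. None of the other structural subunits expressed in most tissues passed. Cox6b1 differed by 0.01 ± 0.16, Cox6c by 0.10 ± 0.16 and Cox5b by 0.18 ± 0.17, while Cox5a differed by 0.31 ± 0.17 with every dKO array above the controls and did not pass.

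**Figure D2:**
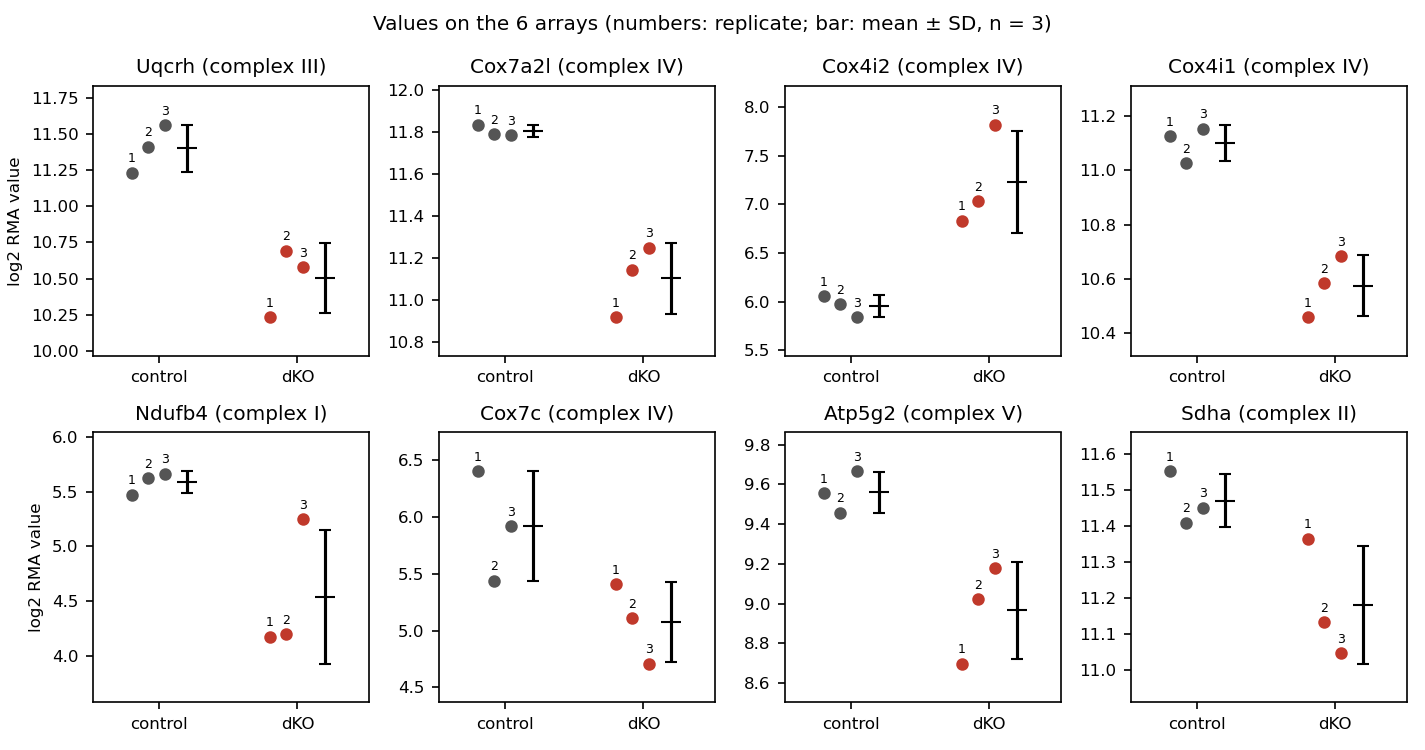
Log2 RMA value (y axis, a separate scale in each panel) of 8 members on the 3 control (grey) and 3 dKO (red) arrays, with the replicate number beside each point and the mean ± SD (n = 3) to the right. Uqcrh, Cox7a2l, Cox4i1 and Atp5g2 were lower in all 3 dKO arrays and Cox4i2 was higher, while in Ndufb4 dKO 3 (5.25) lay apart from the other dKO arrays (4.17 and 4.19).

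Isoforms known from muscle, testis or other restricted sites were set apart, namely Cox4i2, Cox6a2, Cox6b2, Cox7a1, Cox7b2, Cox8b, Cox8c and Ndufa4l2. Of these 8 genes 1 passed, Cox4i2. The muscle forms Cox6a2 (-0.21 ± 0.26), Cox7a1 (0.19 ± 0.35) and Cox8b (-0.06 ± 0.22) overlapped between the groups, as did the testis forms Cox7b2 (0.05 ± 0.20) and Cox8c (-0.09 ± 0.18). Ndufa4l2, a relative of Ndufa4 known to be induced by low oxygen, stood at 6.19, 5.82 and 6.26 in control and 6.20, 5.95 and 6.73 in dKO (0.20 ± 0.23), and its groups overlapped. Cox6b2, a testis form, was higher in every dKO array (0.36 ± 0.17) and did not pass (limma, adjusted p = 0.319).

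In complex V 0 of 17 genes passed limma and 3 lay under an unadjusted p of 0.05. The log2 fold change was negative in 9 genes and positive in 8, with a median of -0.01. Atp5g2 encodes the c subunit of the rotating ring, as do Atp5g1 and Atp5g3. It stood at 9.55, 9.46 and 9.67 in control and 8.70, 9.02 and 9.18 in dKO, clearly apart, with a difference of -0.59 ± 0.18 (adjusted p = 0.109). Atp5g1 (-0.08 ± 0.19) and Atp5g3 (-0.14 ± 0.16) differed less. Atp5mpl, a small membrane subunit, stood at 10.63, 10.73 and 10.38 and at 9.82, 10.06 and 10.28 (-0.53 ± 0.19, adjusted p = 0.169). Atp5c1, the central stalk of the catalytic head, stood at 11.82, 11.78 and 11.76 and at 11.30, 11.58 and 11.27 (-0.40 ± 0.17, adjusted p = 0.236). Atp5o, which ties the head to the peripheral stalk, stood at 10.49, 10.28 and 10.21 and at 9.85, 9.97 and 10.03 (-0.38 ± 0.17, adjusted p = 0.276).

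The other genes of the catalytic head lay nearer to 0, except Atp5b. Atp5a1, the alpha subunit, differed by 0.05 ± 0.17. The catalytic beta subunit gene Atp5b differed by -0.34 ± 0.24, close to Atp5o, and its groups overlapped. Atp5d and Atp5e, the small head subunits, differed by -0.01 and 0.01. The other members of complex V spanned from -0.12 for Atp5l to 0.12 for Atp5pb.

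Set side by side, the complexes had medians of -0.04 (I), -0.22 (II), -0.04 (III), 0.03 (IV) and -0.01 (V), against 0.05 over all genes. Members past the threshold numbered 0, 0, 1 lower, 1 lower with 1 higher, and 0. The mean over the genes of a complex was lower in every dKO array than in any control array for complexes II and V and overlapped for I, III and IV. For complex V these means were 10.89, 10.93 and 10.85 in control and 10.68, 10.80 and 10.82 in dKO. For complex II they were 10.40, 10.36 and 10.25 and 10.22, 10.10 and 10.02. The difference was -0.12 for complex V, where the SD of the 3 means was 0.04 in control and 0.07 in dKO. It was -0.23 for complex II, with SDs of 0.08 and 0.10. Being means over chosen members, these differences were given no test. A chosen list of core subunits held 19 measured genes. From complexes I and II they were Ndufs1, Ndufs3, Ndufs7, Ndufs8, Ndufv1, Ndufv2 and the Sdh genes. From III to V they were Uqcrfs1, Uqcrc1, Uqcrc2, Cox4i1, Cox5a, Cox5b, Atp5a1, Atp5b and Atp5c1. Of these 19, 0 passed limma, 3 lay under an unadjusted p of 0.05, and 15 were negative, with a median of -0.13. Over all 18193 genes 7712 were negative, and of the 1820 genes above the 90th percentile of level 897 were.

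The third dKO array differed from the other two. In dKO 3, 37 of the 81 members lay above their highest control value and 24 below their lowest, whereas in dKO 1 the numbers were 12 and 36 and in dKO 2 15 and 32. Such counts were not made over all genes, so they cannot be read as particular to the members. The mean over members, relative to control, was 0.07 in dKO 3, -0.13 in dKO 1 and -0.11 in dKO 2. Without dKO 3 the members' median was -0.11, against 0.00 over all genes, and 3 members were lower and 1 higher. Over all probe sets, dKO 3 also had the narrowest spread of values, with an upper quartile of 7.51 against 7.62 to 7.70 on the others. When the arrays were quantile-normalized again the members' median was -0.04 and that of all genes 0.01.

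**Figure D3:**
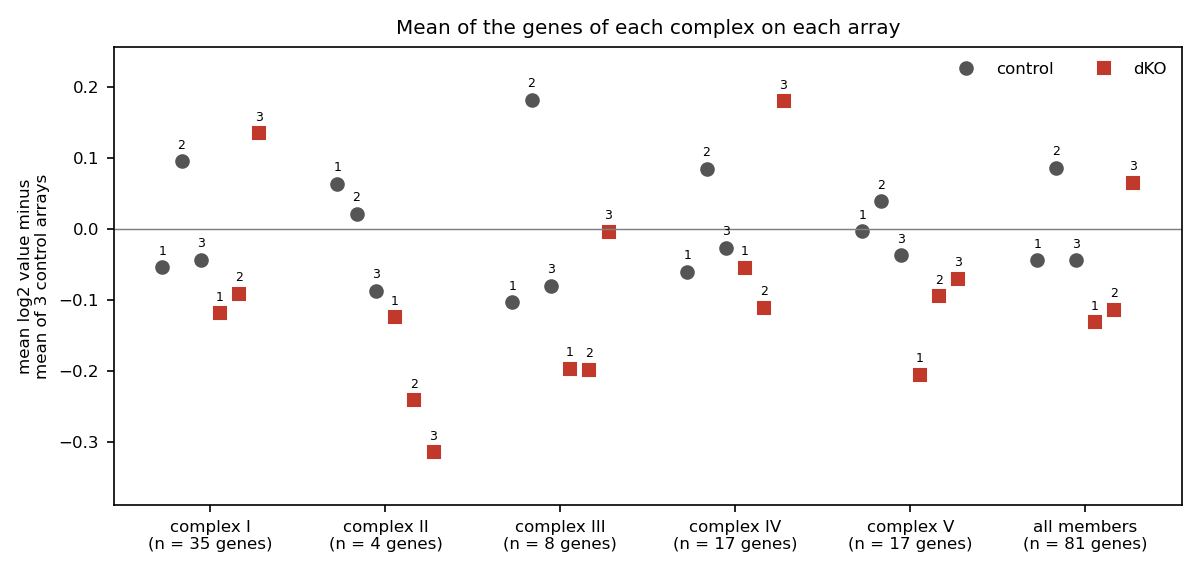
Mean log2 value over the genes of each complex on each array, minus the mean of the 3 control arrays (y axis), for control (grey circles) and dKO (red squares) with replicate numbers. All 3 dKO arrays lie below the controls in complexes II and V, while dKO 3 lies above every control array in complexes I and IV.

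Of the 48 members with several probe sets, 21 had probe sets of both signs and 5 had probe sets more than 0.5 apart. The widest range was that of Ndufs4, from -0.74 for a dim probe set to 0.25. Over the 164 probe sets 4 passed, those of Uqcrh and Cox4i2 and 2 of Cox7a2l, and 0 passed in the direction opposite to the gene's brightest. Of the 81 genes, 54 were above the 90th percentile of level. Above it 7.86% of all genes passed, and 3.7% of these 54 members.

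**Figure D4:**
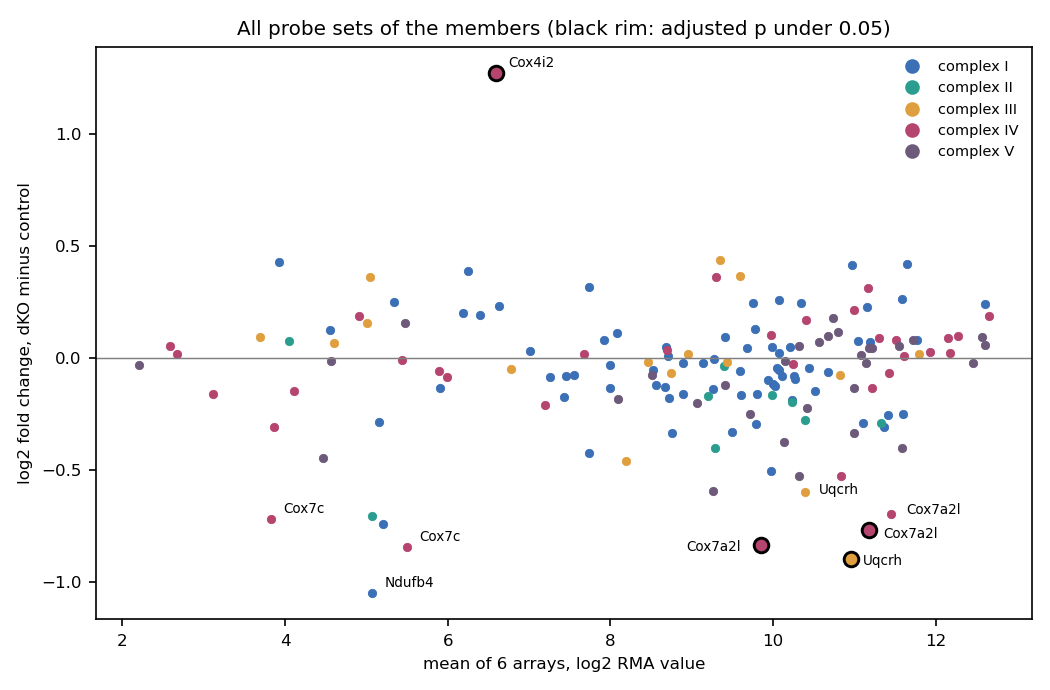
Log2 fold change (dKO minus control, y axis) against the mean of the 6 arrays (log2 RMA value, x axis) for the 164 probe sets of the members, coloured by complex. The 4 large black-rimmed points passed the adjusted threshold. They are 1 of Uqcrh (-0.90), 2 of Cox7a2l (-0.77 and -0.83) and that of Cox4i2 (1.27). Among the bright probe sets that did not pass, Cox4i1 and Atp5mpl (both -0.53) lie low and Ndufa13 (0.42) lies high.

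Beyond the members, 146 other genes of the pathway were followed, and 8 fell and 1 rose, which is 6.16% against 5.97% of all genes. They include the subunit genes Cyc1, Ndufab1 and ND5, whose symbols the rule for members does not match. Their median was -0.11. The 8 that fell, and so the 6.16%, include Myc, a gene that the design deletes. The single mitochondrially encoded subunit measured, ND5 of complex I, stood at 12.62, 12.26 and 12.47 in control and 12.64, 12.29 and 12.36 in dKO (-0.02 ± 0.18). Among regulators of mitochondrial biogenesis 2 of 18 fell, Myc itself, which the design targets, and Ppargc1b, a coactivator of respiratory gene transcription. Ppargc1b stood at 6.26, 6.33 and 6.51 in control and 5.20, 4.97 and 4.59 in dKO, far apart, and fell by 1.45 ± 0.20 (limma, adjusted p = 0.00334). Its call held with each array left out (adjusted p from 0.00584 to 0.0193). The others in that list, among them Nrf1, Gabpa, Esrra and Ppargc1a, did not pass.

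Coq10b, a coenzyme Q binding protein, was the gene that rose. It stood at 8.05, 7.97 and 8.00 in control and 9.61, 9.35 and 9.05 in dKO, and rose by 1.33 ± 0.19 or 2.51-fold (limma, adjusted p = 0.00382). It was 1 of 22 genes in a list of cytochrome c and coenzyme Q genes, and the others did not pass. That list also held Dhodh, Etfa, Etfb, Etfdh, Gpd2 and the subunit genes Cyc1 and Ndufab1. Cyc1 differed by -0.18 ± 0.16, with every dKO array below the controls, and Ndufab1 by -0.11 ± 0.17. Of 20 genes of mitochondrial DNA upkeep and transcription 1 fell, Top1mt, the mitochondrial topoisomerase (7.25 ± 0.10 in control and 6.25 ± 0.15 in dKO, SD, n = 3, limma adjusted p = 0.00896). It passed with each single array left out but not without both control 1 and dKO 1 (adjusted p = 0.0888). The helicase gene Twnk differed by -0.70 ± 0.18 and missed the threshold (adjusted p = 0.0572). The list's median was -0.22.

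Of 27 genes of mitochondrial protein import 3 fell and the median was -0.17. Timm8a1, a chaperone of the space between the membranes, fell by 1.07 ± 0.19 (limma, adjusted p = 0.0102) and kept its call with each array left out. Chchd4, the import receptor of that space, fell by 0.92 ± 0.19 (adjusted p = 0.0218). It no longer passed once control 2 (0.0964), control 3 (0.0905), dKO 1 (0.0756) or dKO 2 (0.0523) was left out, nor without both control 1 and dKO 1 (0.0629). Phb2, a prohibitin of the inner membrane, fell by 0.72 ± 0.17 (adjusted p = 0.0387) and passed only in full or without dKO 3 (0.0497), with adjusted p from 0.072 to 0.156 without any other single array. Of 47 assembly factors 2 fell, with a median of -0.15. Ndufaf6, of complex I, fell by 0.77 ± 0.17 and lost its call without each single array (adjusted p from 0.0513 to 0.136). Sdhaf3, of complex II, fell by 0.79 ± 0.20, lost its call without each array except dKO 2 (adjusted p up to 0.165) and was at -0.21 in the mean of its probe sets. Of 11 genes of carriers, uncoupling and the ATP synthase inhibitor 0 passed limma in either direction, and 3 lay under an unadjusted p of 0.05. Leaving out single arrays gave 4 to 7 lower genes over all these lists, with 4 without control 2, control 3 or dKO 1 and 5 without control 1.

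**Figure D5:**
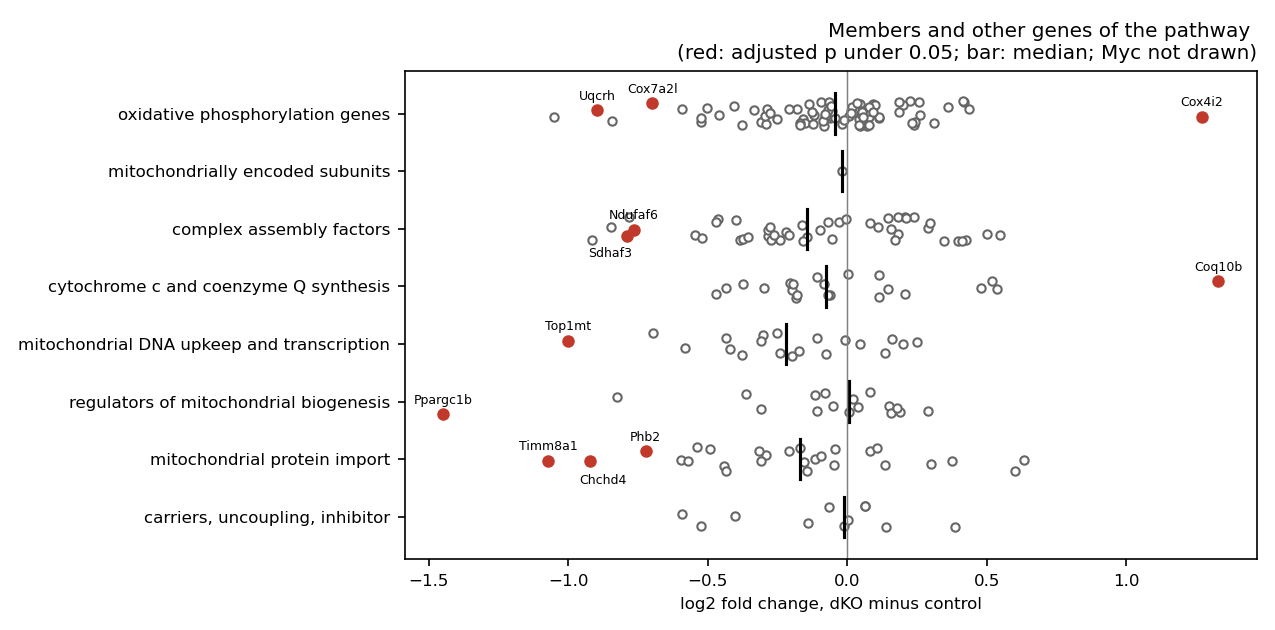
Log2 fold change (dKO minus control, x axis) of the 81 members (top row) and of the genes in 7 other lists of the pathway, with the median of each as a bar and genes past the adjusted threshold in red and named. The members centre on -0.04 and the red genes of the other lists lie on the left except Coq10b (1.33); Myc (-2.97) is left out of the drawing and of its row's median.

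Several features of the arrays moved with the groups. Myc stood at 10.74 ± 0.24 in control and 7.77 ± 0.29 in dKO (SD, n = 3), and the most different Mycn probe set at 9.57, 8.93 and 9.48 and at 4.42, 3.28 and 4.47. The brightest Mycn probe set differed by -0.83 and its groups overlapped. The 3′ minus 5′ difference of the Gapdh control probe sets was 2.27, 2.32 and 2.11 in control and 2.73, 2.34 and 2.45 in dKO, while that of beta-actin overlapped. Markers of other cells moved too: 5 of 8 megakaryocyte, 6 of 9 T and NK and 5 of 6 mast cell and basophil markers rose, and 3 of 8 lymphoid progenitor and 4 of 9 granulocyte and monocyte markers fell, with 1 of the latter higher. Summed levels on the linear scale ran from 2945 to 2968 in control and 9698 to 11594 in dKO for megakaryocyte markers and from 8727 to 15100 and 2062 to 5268 for granulocyte and monocyte markers. Those for T and NK markers ran from 2117 to 2615 and 4419 to 5387, for mast cell and basophil markers from 1555 to 2282 and 4932 to 7239, and for lymphoid progenitor markers from 3105 to 4467 and 896 to 1318. Of 8 erythroid markers 1 fell and 2 rose, and those sums overlapped, as did those of the 7 stem cell and gate markers, of which 0 passed limma and 2 lay under an unadjusted p of 0.05. Their part in the results on the members was not tested. Xist signal marked control 1 (10.57) and dKO 1 (11.32), against 4.44 to 5.33 on the other arrays. Without both pools only Cox4i2 passed among the members (1.23%). The share over all genes was then 3.18%, against 5.97% with all arrays.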

How the data were processed

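RNA of sorted cells was amplified with a Nugen kit, labelled with biotin and hybridised to Affymetrix arrays, per the labels' protocols. The deposited values are log2 RMA values; the submitters' processing notes name RMA, with no version, and do not say whether the 6 arrays were normalized together. Fold changes of dim probe sets can be understated on this scale. Scanner files and detection calls were not used here, and the number of arrays limits the precision.

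Of 45101 probe sets, 34945 carried 1 gene symbol in the platform annotation, 932 several and 9160 none; 64 were controls. Symbols were updated through RefSeq identifiers (GRCm38.p6, 34741 matched), and the brightest probe set stood for each of 18193 genes. dKO and control were compared with limma 3.58.1 in R 4.3.3 (lmFit, eBayes, group as only term, two-sided, Benjamini-Hochberg over all genes), tested on simulated data first. Separate pools of mice are the replicates. Members, lists and alternatives were chosen with earlier results of these data known. Named members were those past the threshold, the 4 smallest p in each complex, the 3 highest and 3 lowest fold changes, all of complex II, restricted isoforms, Myc, Mycn and up to 4 genes past the threshold in each other list; others serve as examples of a role and were chosen after their values were seen. Figures used matplotlib 3.10.9.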

Additional observations from a re-analysis of the deposited data

How the results depend on the processing

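The members' median stayed between -0.11 and 0.03 under the alternatives tried, left-out arrays included. The count of lower members, 2 in the comparison reported, was 1 without _x_at and _s_at probe sets, 1 with the fit over probe sets, 1 with structural subunits only, 4 with an intensity trend and robust variances, 5 with array weights and 0 without control 1 and dKO 1; leaving out single arrays gave 0 to 3 lower and 0 to 1 higher. Complex I had 1 lower member (Ndufb4) with quantile normalization, cyclic loess, trend and robust variances, array weights, the replicate block or a threshold of 0.1, and 0 to 1 without single arrays. Complex III had 0 without _x_at and _s_at probe sets and without both pools, and 0 to 1 without single arrays. Complex IV had 0 lower with the fit over probe sets, the replicate block, structural subunits only and without both pools, 2 with trend and robust variances or array weights, and 0 to 1 lower and 0 to 1 higher without single arrays. Complex V had 1 lower member and a median of -0.11 with array weights, and medians from -0.13 to 0.026 without single arrays.

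Other pathway genes numbered 2 higher under the filter on dim genes, the mean of probe sets, quantile normalization, cyclic loess, array weights and the threshold of 0.1, and 4 with trend and robust variances; 13 were lower with array weights, 5 with the replicate block, 3 without both pools and 4 to 7 without single arrays. Among the members named, signs turned only in those near 0 that never passed: Uqcrc2 was 0.027 with array weights (-0.18 to 0.032 without single arrays), Cox7b2 -0.026 with quantile normalization, -0.028 with cyclic loess and -0.037 without both pools (-0.075 to 0.21), Cox7a1 -0.34 without both pools (-0.087 to 0.57), Cox8b -0.26 to 0.13, Cox8c -0.21 to 0.0079 and Ndufa4l2 -0.019 to 0.37 without single arrays. Over all genes, 519 lower and 567 higher became 849 and 848 with array weights, 236 and 336 without control 2, 245 and 331 without control 3, 295 and 388 without dKO 1, 275 and 303 without both pools, and 819 and 794 at the threshold of 0.1. The cause was not tested.

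Replicate numbers are shared by the groups, and deviations of same-numbered arrays correlated at 0.06, -0.00 and 0.02. For replicates 1 and 3, though not 2, the same-numbered dKO array was the one that correlated best with the control array. Whether the numbers pair the arrays cannot be told from these values. With the replicate block 3 members passed, Uqcrh, Cox4i2 and Ndufb4 (adjusted p = 0.0484), and Cox7a2l did not (0.0847). Every member still matched the rule by its updated symbol, a check that could drop genes but not add any. With 3 arrays a group, small changes in single genes could be missed, as the intervals show.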
